A study of Homo sapiens with 54 samples.

Results

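Open chromatin of MDA-MB-231 cells that had survived cisplatin, taken 1 day after the drug was removed, was compared with that of untreated MDA-MB-231 cells. MDA-MB-231 is a triple-negative breast cancer cell line, and cisplatin is a platinum drug that crosslinks DNA and blocks its replication. Accessible DNA had been mapped by bulk ATAC-seq, in which a transposase cuts and tags DNA that is not covered by nucleosomes. The 2 groups had 3 biological replicates each, and per the labels each replicate had been split into 3 experimental samples before tagmentation, so 18 of the 54 sequenced samples of the study belonged here. The deposited data were 1 peak list per biological replicate, 6 of 18 lists, and all comparisons used these lists with n = 3 a group. The other lists came from MDA-MB-231 survivors at day 10 and from PC3, a prostate cancer line, treated in the same way, and were used only where named. The labels give no dose or length of treatment, and the day 1 group holds only the cells that were still alive, so a change within cells and a loss of some cells cannot be told apart. In bulk data, more cells with an open site and a more open site in each cell cannot be told apart either.

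A peak in such a list marks a stretch of DNA where tagged fragments piled up beyond the local background. Peaks at gene starts mostly mark promoters, which are broad and rich in GC in genes used by most cells, while peaks within and between genes mostly mark enhancers and other distal sites that differ between cell types. Crosslinking drugs are known for arresting cells in the cell cycle, for raising p53 targets in cells with an active p53 and for giving rise to enlarged, polyploid survivors. MDA-MB-231 carries a mutant p53.

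All 14 genes fixed as marks of MDA-MB-231, among them VIM, CD44, AXL and EGFR, had a peak within 1 kb of a gene end in 3 of 3 day 1 and 3 of 3 control lists. CDKN2A, which is deleted in this line, had none in the 6 lists and had one in 3 of 3 lists of each PC3 group. Of the markers of blood, endothelial and liver cells, PTPRC, PECAM1, CDH5, VWF, TEK, ALB and TTR had no peak at a gene end in the 6 lists, while CD3E, SPI1, CD14 and APOA1 had one in all 6. PGR, the progesterone receptor gene, which this line is known for not expressing, had a peak at a gene end in 3 of 3 day 1 lists and in 0 of 3 control lists. The lists hold no read counts, so the depth behind each peak is unknown. Replicate 1 stood apart in both groups by its narrow peaks, with a median width of 350 bp against 522 and 459 bp in day 1 replicates 2 and 3, and of 365 bp against 592 and 587 bp in control replicates 2 and 3.

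Survivors at day 1 had more peaks than control cells, and the additional ones lay mostly away from gene ends. The day 1 lists held 133526, 100564 and 120254 peaks in replicates 1 to 3, against 98777, 82392 and 87524 in the control lists. Every day 1 list was above every control list, and the means were 118115 ± 16585 at day 1 and 89564 ± 8381 in control (SD, n = 3 each). The two-sided exact permutation test gave p = 0.1, the smallest value 3 lists against 3 can give. Peaks between genes numbered 55975, 41559 and 50629 at day 1, against 38434, 31988 and 34157 in control, and the groups did not overlap. Peaks within 1 kb of a gene end numbered 19046, 15986 and 17390 at day 1, against 16458, 14378 and 14906 in control, and the groups overlapped.

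As a share of all peaks, gene ends took 14.9% ± 0.891 at day 1 and 17.0% ± 0.395 in control, and stretches between genes took 41.8% ± 0.406 and 38.9% ± 0.101, with no overlap between groups in either share (exact permutation p = 0.1 each). When each list was reduced to its 50000 peaks with the highest authors' peak score, gene ends took 25.0% in both groups, and stretches between genes took 36.1% ± 0.550 at day 1 and 35.3% ± 0.473 in control. At equal list length the difference in the share of gene ends was 0.052 percentage points, against -2.17 with all peaks.

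**Figure D1:**
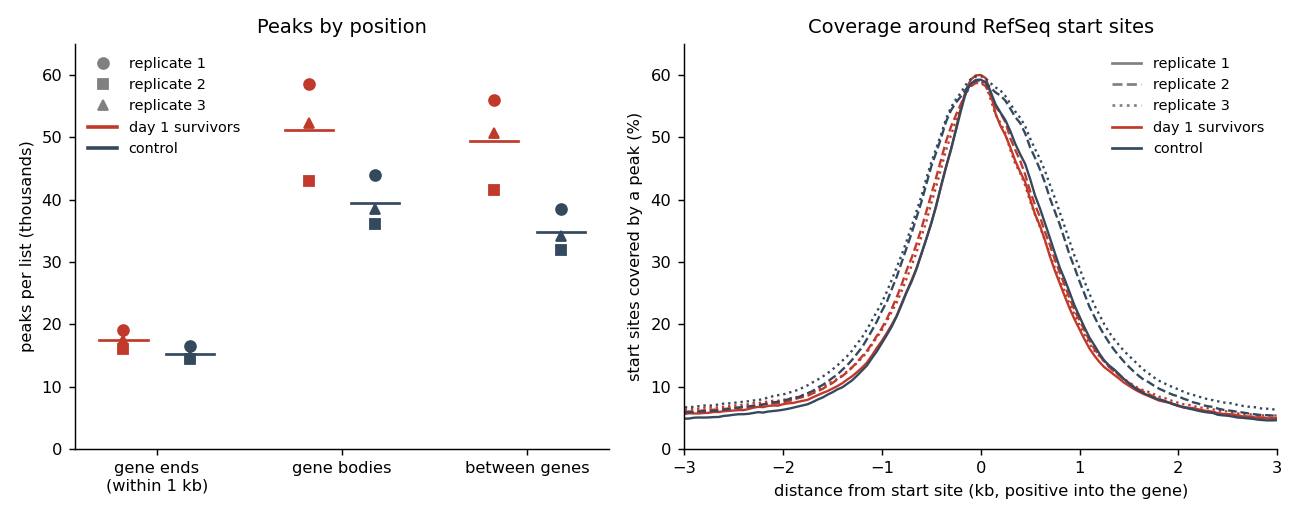
Left, peaks per list (axis in units of 1000 peaks) within 1 kb of a gene end, in gene bodies and between genes; symbols are the 3 replicates and bars the group means. Right, the share of RefSeq start sites covered by a peak, in percent, by distance from the start site in kb, 1 line per list. Day 1 lists hold more peaks between genes than any control list, and the lines meet at the start site and part more on its downstream than on its upstream side.

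Covered length differed less than the number of peaks. Peaks covered 67.4, 69.4 and 75.2 Mb at day 1, against 54.4, 65.8 and 70.9 Mb in control, and the groups overlapped (70.7 ± 4.02 and 63.7 ± 8.49 Mb, exact permutation p = 0.3). Peaks of 300 to 1000 bp numbered 66050 ± 4595 at day 1 and 48035 ± 1404 in control, without overlap. Peaks of 3 kb or more, typical of strong promoters, numbered 287, 594 and 556 at day 1, against 367, 986 and 1356 in control. In each of the 3 same-numbered pairs the day 1 list held fewer of these broad peaks, although the groups overlapped (exact permutation p = 0.3).

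Downstream flanks of promoters were covered less often at day 1 than in control, and the start sites themselves at a like share. Over 22012 RefSeq start sites of protein-coding genes, 59.2% ± 0.708 were covered at day 1 and 59.4% ± 0.362 in control. At 500 bp into the gene the share was 40.4% ± 0.848 at day 1 and 47.2% ± 3.41 in control, and at 1000 bp it was 19.9% ± 0.723 and 25.7% ± 4.02 (exact permutation p = 0.1 each, lower at day 1 in 3 of 3 same-numbered pairs). At 500 bp before the start site it was 38.8% ± 2.41 at day 1 and 42.5% ± 5.44 in control (exact permutation p = 0.3, also lower in 3 of 3 pairs). The same showed in the 13405 merged regions at gene ends that had a peak in all 6 lists: their median covered length was 1261 ± 51.1 bp at day 1 and 1418 ± 159 bp in control (exact permutation p = 0.3, lower in 3 of 3 pairs). In the 27043 such regions between genes it was 516 ± 62.2 bp at day 1 and 512 ± 106 bp in control.

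Peaks of the 9 MDA-MB-231 lists were merged into 152339 regions, of which 69355 had a peak in all 6 day 1 and control lists. A region was called gained when 3 of 3 day 1 and 0 of 3 control lists had a peak there, and lost in the opposite case. There were 11970 gained regions, 7.86% of all, and 1042 lost ones, 0.684% of all. With 50000 peaks per list, where both groups have the same number, 2880 regions were gained and 2323 lost, and gains exceeded losses by less. In both settings 425 regions were gained and 12 lost. Without day 1 replicate 2 there were 21034 gained regions; lost regions numbered 1895 without day 1 replicate 1, 1835 without control replicate 1 and 1574 without control replicate 2. By the share of covered bases in common, day 1 lists were closer to one another (71.1% to 79.9%) than to control lists (59.6% to 69.3%), and control lists shared 68.9% to 83.2%.

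**Figure D2:**
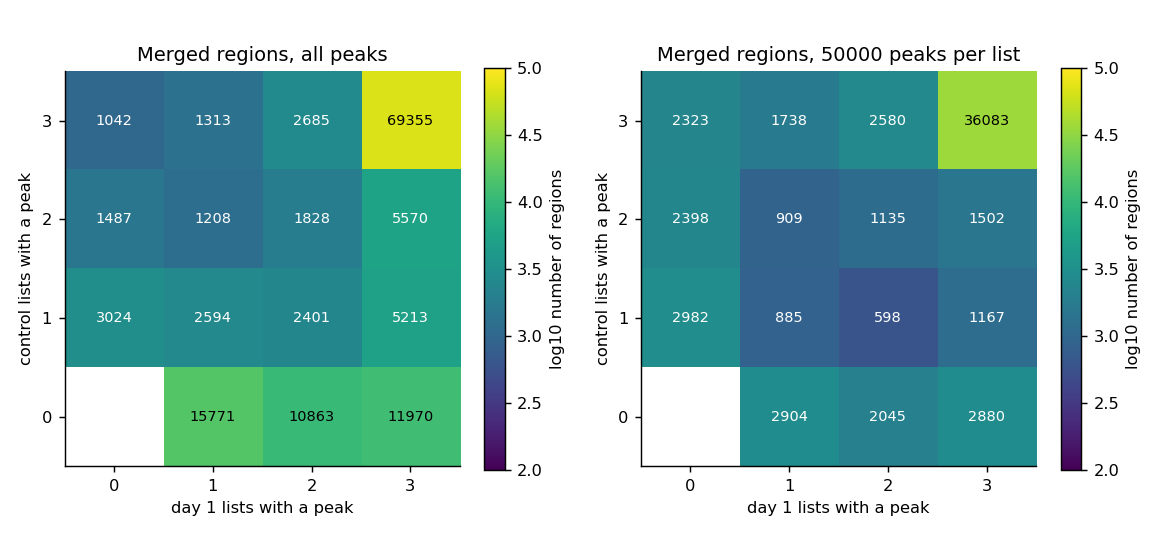
Numbers of merged regions by how many of the 3 day 1 lists (horizontal) and how many of the 3 control lists (vertical) have a peak there, with all peaks on the left and 50000 peaks per list on the right; colour is the log10 number. The lower right corner holds the gained regions (11970 and 2880) and the upper left corner the lost ones (1042 and 2323).

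Gained regions were mostly distal sites, of a width near that of all regions. Their median width was 431 bp, 50.9% lay between genes and 5.95% at gene ends, and the median distance to the nearest start site was 50.2 kb. Over all regions these values were 458 bp, 44.4%, 11.7% and 40.6 kb. Regions open in all 6 lists had a median width of 785 bp, 39.0% lay between genes and 19.3% at gene ends. Gained regions ranked low within the day 1 lists, with a median percentile of peak score of 28.6 against 68.0 for regions open in all 6 lists, and 11.7% of them ranked in the upper 50 percentiles. Of the gained regions, 54.9% had a peak in all 3 day 10 lists of the same line, 41.2% in all 3 PC3 day 1 lists and 25.1% in all 3 PC3 control lists, beside 60.1%, 53.2% and 45.8% of all regions. Lost regions lay mostly in gene bodies (64.1%, beside 43.9% of all regions), with 23.8% between genes. They had a median width of 398 bp and a median percentile of 16.9 within the control lists. Of the lost regions, 5.18% had a peak in all 3 day 10 lists and 46.1% in none of them, beside 60.1% and 15.2% of all regions.

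Gains were not spread evenly over chromosomes. Chromosome 11 had the highest share of its regions gained, 9.56%, followed by chromosome 14 with 9.44%, and chromosomes 22 (4.55%) and 18 (4.69%) had the lowest. Losses were most frequent on chromosome 19, at 1.57% of its regions, against 0.433% on chromosome 5. These shares were not tested.

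At promoters, gains and losses were of unlike kinds. RefSeq windows of 300 bases, from 250 before to 50 after a start site (22132 windows of 15812 protein-coding genes), were open in all 6 lists in 12830 cases and without a peak in all 6 in 8080. There were 120 windows of 115 genes gained at day 1 (0.542% of windows) and 43 windows of 41 genes lost (0.194%). Of the lost windows, 29 of 43 (67.4%) had a day 1 peak within 1 kb, at a median distance of 463 bp. For windows closed in all 6 lists these values were 9.62% and 12370 bp. The share over all windows was 65.9%, but 58.0% of all windows were open in all 6 lists and so held a day 1 peak. Of the gained windows, 15 of 120 (12.5%) had a control peak within 1 kb, at a median distance of 11640 bp. In the windows that were also gained with 50000 peaks per list, 7 of 16 (43.8%) had one, at a median distance of 2476 bp. In the base sequence, gained windows resembled closed promoters, with a median GC content of 54.2% and 5 CpG dinucleotides, against 65.3% and 14 in lost windows, 66.0% and 27 in windows open in all 6 lists and 54.0% and 6 in closed ones. The choice of windows used the same lists, so these are descriptions. Without day 1 replicate 2, 188 windows were gained; 127 were lost without day 1 replicate 1 and 90 without control replicate 1.

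Motifs were searched by their letters on both strands. TGANTCA, the site of AP-1, a family of transcription factors of stress and growth signals (FOS, JUN, ATF), was in 24 of 120 gained windows (20.0%), against 1 of 43 lost ones (2.33%), 5.13% of windows open in all 6 lists, 7.25% of closed ones and 6.15% of all windows. GGGCGG, the GC box bound by SP factors, was in 20.8% of gained, 48.8% of lost, 72.5% of open, 32.2% of closed and 56.3% of all windows. TGACGTCA, the cyclic AMP response element, and CCGGAAGT, an ETS site, were in no gained or lost window, and in 2.26% and 5.35% of all windows. GGAATG, a TEAD site, was in 16.7% of gained, 6.98% of lost and 12.2% of all windows. CCAAT was in 38.3% of gained, 30.2% of lost and 34.6% of all windows, and TATAAA in 15.8%, 6.98% and 9.46%. A spaced pair of half-sites of interferon regulatory factors, added after the RSAD2 sequence had been seen, was in 5.00% of gained, 4.65% of lost and 3.17% of all windows. No motif contains another, and a match is not evidence of binding.

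Of the gained windows, 16 in 15 genes were also gained with 50000 peaks per list, and of the lost ones 14 in 13 genes. The gained genes included IL23A, RSAD2, DCLK1, IL16, ADRA2A, KLK10, FMOD and CARD9, and the lost ones SET, HMGB1, RTN4, TRIP12, SP100, RPL32, RNPS1, PLAGL1 and SIGIRR. All 14 of these lost windows had a day 1 peak within 1 kb, at a median distance of 149 bp, so none of them lay in a stretch without day 1 peaks. The gene window of CARD9 as a whole was lower at day 1 (-0.45, limma adjusted p = 0.032, by the fit described below). The windows of IL23A (the p19 subunit of interleukin 23), DCLK1 (a doublecortin-like kinase) and RSAD2 (viperin, an interferon-induced antiviral enzyme) are shown as gained windows with an AP-1 or interferon factor match, and that of SET (an inhibitor of protein phosphatase 2A and a histone chaperone) as a lost GC-rich window. They are RefSeq sequences of GRCh38.p14, 5′ to 3′ on the strand of the gene, with matches to the AP-1 site, the GC box and the interferon factor pair in capitals, at chr12:56338634-56338933 on the plus strand for IL23A, chr13:36131890-36132189 on the minus strand for DCLK1, chr2:6877527-6877826 on the plus strand for RSAD2 and chr9:128689724-128690023 on the plus strand for SET.
IL23A: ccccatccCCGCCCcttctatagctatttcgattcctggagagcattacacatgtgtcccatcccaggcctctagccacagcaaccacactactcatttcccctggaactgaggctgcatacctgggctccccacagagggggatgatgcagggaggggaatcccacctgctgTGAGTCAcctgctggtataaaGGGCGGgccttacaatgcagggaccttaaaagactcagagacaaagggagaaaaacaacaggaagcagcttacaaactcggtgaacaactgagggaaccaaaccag
DCLK1: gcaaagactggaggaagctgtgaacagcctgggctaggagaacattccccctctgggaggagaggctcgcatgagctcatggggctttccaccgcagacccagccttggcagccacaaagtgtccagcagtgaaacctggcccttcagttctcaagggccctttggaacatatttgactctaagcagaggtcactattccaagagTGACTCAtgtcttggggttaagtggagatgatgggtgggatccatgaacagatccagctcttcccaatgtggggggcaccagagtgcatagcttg
RSAD2: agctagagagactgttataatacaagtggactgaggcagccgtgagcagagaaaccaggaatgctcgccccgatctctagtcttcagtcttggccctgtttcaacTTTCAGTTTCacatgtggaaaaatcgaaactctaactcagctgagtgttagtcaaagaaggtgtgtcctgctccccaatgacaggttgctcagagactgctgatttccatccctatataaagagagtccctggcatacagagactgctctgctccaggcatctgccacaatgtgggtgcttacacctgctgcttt
SET: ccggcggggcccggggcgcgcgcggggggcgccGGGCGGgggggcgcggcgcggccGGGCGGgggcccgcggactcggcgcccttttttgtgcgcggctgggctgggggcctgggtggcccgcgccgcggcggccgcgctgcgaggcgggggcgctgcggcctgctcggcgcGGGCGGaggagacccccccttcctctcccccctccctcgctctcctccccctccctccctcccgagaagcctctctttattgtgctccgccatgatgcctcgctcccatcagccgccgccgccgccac

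The IL23A, DCLK1 and RSAD2 windows were covered over all 300 bases in each of the 3 day 1 lists and over 0 bases in each of the 3 control lists. The nearest control peak was 3819 bp away from the IL23A window, 11180 bp from the RSAD2 window and 178 bp from the DCLK1 window. All 3 were covered in the 3 day 10 lists as well. The IL23A and RSAD2 windows were also covered in 3 of 3 PC3 control lists, and the DCLK1 window in none. The SET window was covered over 0 bases in each day 1 list, against 138, 122 and 135 bases in control replicates 1 to 3, and the nearest day 1 peak was 158 bp away.

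Among the genes that the lists below name, promoter windows were gained at RSAD2, ATP7B and NRXN3 and lost at ZMAT3 and BMI1. Of these, only the RSAD2 window was called with 50000 peaks per list as well. The BMI1 window had a day 1 peak 71 bp away, and all 4 merged regions at that gene had a peak in all 6 lists. A window of PGR was covered over 149, 167 and 139 bases in the day 1 lists and 0 in the control lists, and was gained with all peaks but not with 50000 per list. One window of ESR1, the oestrogen receptor gene, at chr6:151805455-151805754, was covered over 300, 277 and 300 bases at day 1 and 0 in the control lists. It was covered in 3 of 3 PC3 control lists too, and like the PGR window it was not gained with 50000 peaks per list.

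To compare genes, the peak-covered length over each gene body and 10 kb on either side was scaled to the same total covered length in every list, and limma was run on log2(length + 500 bp) of all 18 lists together. Of 16816 genes tested, 1825 (10.9%) were higher at day 1 and 2609 (15.5%) lower at an adjusted p under 0.05, together 26.4%. The median change over all genes was -0.09 on this log2 scale and 0.04 without the scaling. Without it 1897 genes were higher and 318 (1.89%) lower, all 318 of them among the 2609, and with median-of-ratios scaling 2230 were higher and 953 lower. With scaling, a lower call is relative to a total that averaged 70.7 Mb at day 1 and 63.7 Mb in control. Without day 1 replicate 3, 1162 genes were lower, and without control replicate 2, 1594. With 50000 peaks per list 649 of 15950 genes were higher (4.07%) and 526 lower (3.30%). Called in both with the same sign, and with groups that did not overlap, were 408 genes higher (2.43%) and 315 lower (1.87%). Of the 25 genes called higher that are described with a change below, 25 passed without scaling and 17 with 50000 peaks per list. Of the 38 described as lower, 17 passed without scaling and 12 with 50000 peaks per list.

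The share of genes called higher went with the length of the gene. It was 8.97% among genes with a window of 20 to 30 kb, 11.0% at 100 to 200 kb, 20.8% at 200 to 500 kb and 37.0% in the 335 genes of 500 kb or more. The share called lower was 18.1% in the shortest class and 2.69% in the longest. It also went with the level in control cells, which enters the change itself: 45.0% of the genes with under 0.5 kb in control were higher, against 1.65% of those with 20 kb or more. A gene was kept only if 3 or more lists covered 500 bp of it. Genes with under 0.5 kb in control could not pass on the control lists alone, so the choice of genes enters that share. With 50000 peaks per list the share higher was 3.44% in the shortest and 7.69% in the longest class.

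**Figure D3:**
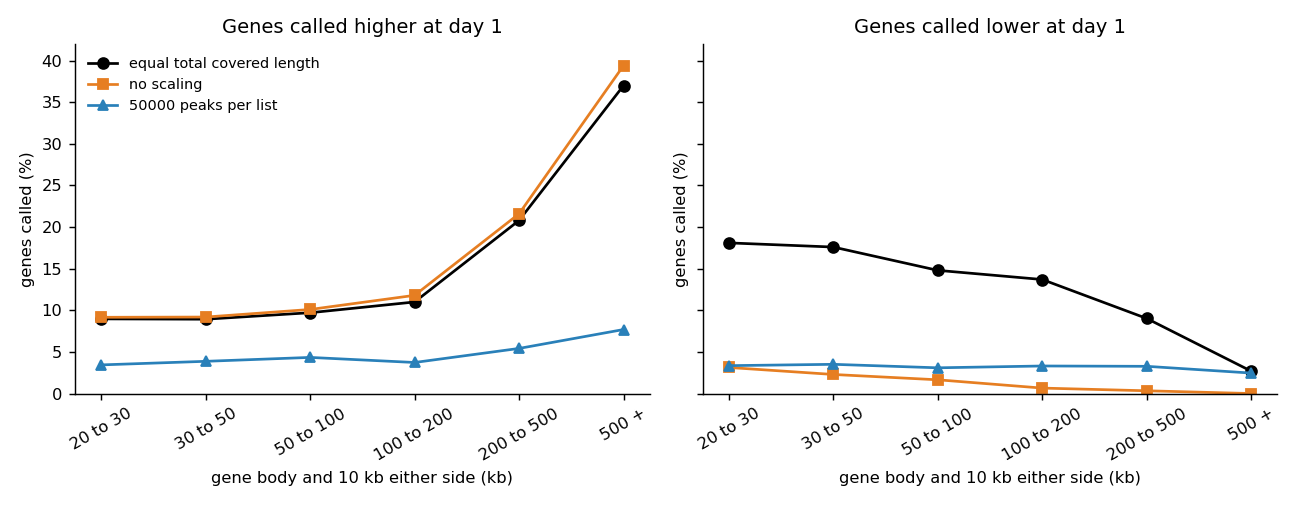
Share of genes called higher (left) and lower (right) at day 1, in percent, by the length of the gene window in kb, under 3 treatments of the lists. The share called higher is 37.0% in genes of 500 kb or more with the lists scaled to equal covered length, and 7.69% with 50000 peaks per list.

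The 10 genes with the largest rise that passed both fits included subunits of ion channels and other proteins known from neurons. CACNA1B, which encodes the pore of the N-type calcium channel of nerve endings, had 10.4, 3.70 and 7.47 kb of scaled covered length at day 1, against 0.670, 0.233 and 0.224 kb in control. The choice of these genes required every day 1 list to exceed every control list. A lack of overlap, in either direction, held in 45.6% of all genes tested. For CACNA1B, replicate 1 had the highest of the day 1 values. The log2 change was 3.07 ± 0.32 (SE, limma adjusted p = 5.7e-06). The gene lies at chr9:137877782-138124619. Its window, 10 kb flanks included, held 4 gained regions, all of them present in the 3 day 10 lists. With 50000 peaks per list 1 region was gained there. The widest of the 4 was 1352 bp long, at chr9:137881276-137882627 close to one end of the gene. It was covered over 1342, 1320 and 1321 bp at day 1 and 0 bp in each control list.

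DPP6 and KCND3 encode an auxiliary and a pore subunit of the Kv4 potassium channels that set the firing of neurons and heart cells. DPP6 had 9.15, 6.76 and 6.83 kb at day 1, against 1.27, 0.771 and 0.929 kb in control, with a log2 change of 2.44 ± 0.29 (adjusted p = 1.7e-05). Its window, 10 kb flanks included, held 9 gained regions with all peaks and 0 with 50000 peaks per list. KCND3 had 3.85, 3.15 and 4.28 kb at day 1, against 0.697, 0.249 and 0.230 kb in control (2.29 ± 0.18, adjusted p = 3.4e-07). In both genes the lowest day 1 list was above the highest control list, as the choice of genes required. The gap exceeded the range of the control lists, but the genes were also picked for the size of their rise, so it is no added support.

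NSG1, an endosomal protein of neurons, had 3.43, 4.04 and 3.08 kb at day 1, against 0.365, 0 and 0.536 kb in control, and a gained region of 2114 bp inside the gene at chr4:4406375-4408488. DRGX, a homeobox factor of sensory neurons, had 3.12, 2.23 and 1.86 kb at day 1, against 0.407, 0 and 0 kb in control. The log2 change was 2.39 ± 0.20 for NSG1 and 2.23 ± 0.21 for DRGX (adjusted p = 5.4e-07 and 1.6e-06).

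AGBL4, a carboxypeptidase that trims glutamates from tubulin, spans more than a megabase and had 5.16, 2.54 and 2.91 kb at day 1, against 1.11, 0 and 0 kb in control (2.40 ± 0.32). SMTNL2, a smoothelin-like protein, had 2.44, 1.96 and 2.63 kb at day 1, against 0.0244, 0 and 0.371 kb in control (2.21 ± 0.33). SERPINA9, a serpin of germinal centre B cells, had 2.51, 1.75 and 2.56 kb at day 1, against 0.308, 0.0351 and 0.0592 kb in control (2.14 ± 0.16). OPN1SW, the opsin of blue cones, had 1.62, 1.96 and 1.98 kb at day 1 and was listed at 0 in all 3 control lists, so no fold is given.

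**Figure D4:**
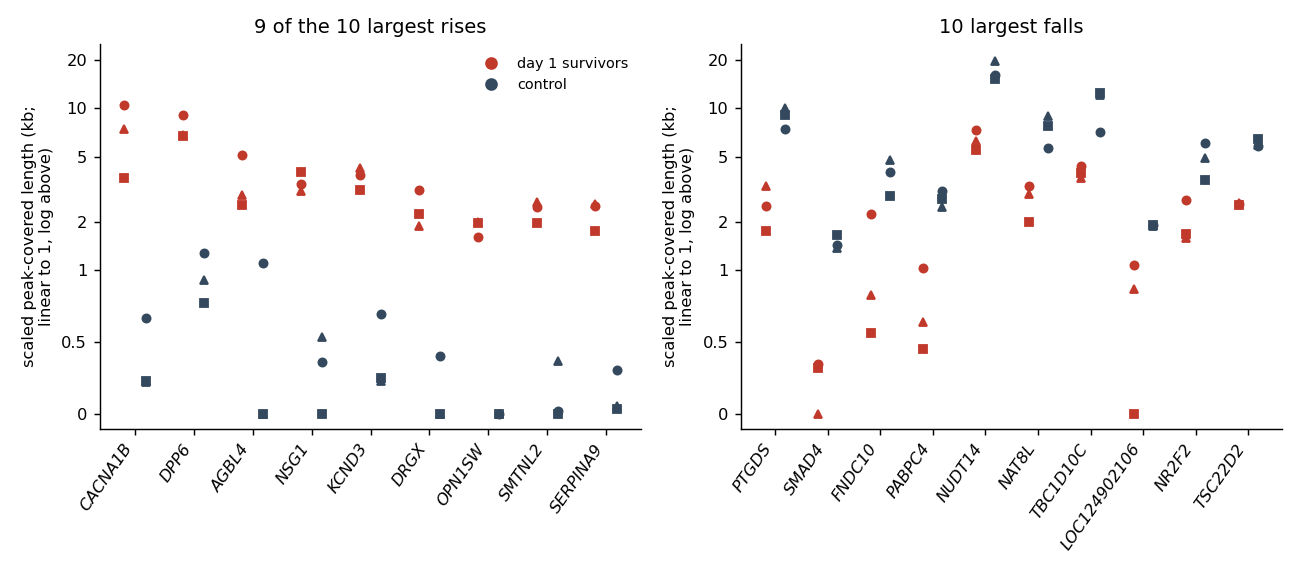
Scaled peak-covered length in kb, per list, of 9 of the 10 genes with the largest rise and the 10 with the largest fall that passed the test with all peaks and with 50000 per list; circles, squares and triangles are replicates 1, 2 and 3, and the axis is linear to 1 kb and logarithmic above. The 3 day 1 points of each gene lie on one side of the 3 control points because the choice of genes required it.

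Among the 10 largest falls, PTGDS, the synthase of prostaglandin D2, had 2.48, 1.75 and 3.30 kb at day 1, against 7.42, 9.16 and 10.0 kb in control (log2 change -1.66 ± 0.22, adjusted p = 4.5e-05). A region of 1964 bp over the end of that gene, chr9:136979617-136981580, had 0 bp in each day 1 list, against 1148, 1228 and 1842 bp in control. SMAD4, the common mediator of TGF-beta signalling, had 0.352, 0.320 and 0 kb at day 1, against 1.43, 1.66 and 1.36 kb in control (-1.49 ± 0.26, adjusted p = 0.00069). Its change was -1.71 with 50000 peaks per list.

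NUDT14, which hydrolyses UDP-glucose, had 7.39, 5.57 and 6.27 kb at day 1, against 16.0, 15.2 and 19.6 kb in control (-1.33 ± 0.19). NAT8L, the synthase of N-acetylaspartate, had 3.31, 2.00 and 2.96 kb at day 1, against 5.71, 7.80 and 8.92 kb in control (-1.29 ± 0.18), but its change was 0.23 with peaks of a -log10 p of at least 4. TBC1D10C, an inhibitor of calcineurin and Ras signalling in lymphocytes, had 4.41, 3.96 and 3.74 kb at day 1, against 7.14, 12.4 and 12.0 kb in control (-1.24 ± 0.23). PABPC4, a cytoplasmic poly(A)-binding protein, had 1.04, 0.453 and 0.640 kb at day 1, against 3.10, 2.75 and 2.46 kb in control (-1.46 ± 0.22).

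NR2F2, the nuclear receptor COUP-TFII, had 2.72, 1.66 and 1.58 kb at day 1, against 6.10, 3.61 and 4.97 kb in control (-1.12 ± 0.24). TSC22D2, of the TSC22 family of stress and osmotic response regulators, had 2.55, 2.54 and 2.59 kb at day 1, against 5.86, 6.46 and 5.92 kb in control (-1.10 ± 0.12, adjusted p = 5.5e-06). FNDC10 fell by 1.47 ± 0.47 on the log2 scale (adjusted p = 0.028), with 2.22, 0.563 and 0.827 kb at day 1, against 4.07, 2.90 and 4.80 kb in control. These genes passed in the unscaled fit too except FNDC10, with a change of -1.34 and an adjusted p of 0.066 there. The adjusted p of FNDC10 was between 0.0706 and 0.106, with changes of -1.44 to -1.19, without day 1 replicate 2 or 3 or control replicate 1 or 3.

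The widest gained and lost regions at gene ends were a few kilobases long. One of 3999 bp at chr11:45906121-45910119 spans the ends of MAPK8IP1, a scaffold of JNK signalling, FREY1 and PEX16, a peroxisome biogenesis factor. It was covered over 2395, 2843 and 3975 bp at day 1 and 0 bp in the control lists. MAPK8IP1 rose by 0.63 ± 0.17 (adjusted p = 0.011) and FREY1 by 0.73 ± 0.20 (adjusted p = 0.014), and as neighbours they share this region. Their adjusted p was 0.0566 and 0.0633 without day 1 replicate 3, and 0.0664 and 0.0797 without control replicate 2. Their changes were -0.00624 and -0.0576 with peaks of a -log10 p of at least 4, and that of MAPK8IP1 was -0.0852 over the gene body alone. COQ8A, a kinase-like protein of coenzyme Q synthesis, held a gained region of 3961 bp at chr1:226983343-226987303 and rose by 0.77 ± 0.20 (adjusted p = 0.011, and 0.0654 without day 1 replicate 3). PPDPF lost a region of 3265 bp at chr20:63522133-63525397, which was covered over 1462, 1552 and 3265 bp in control, and fell by 0.62 ± 0.15 (adjusted p = 0.0078). GPSM1, a regulator of G protein signalling, and its neighbour DNLZ lost a shared region of 1979 bp and fell by 0.99 ± 0.14 and 0.94 ± 0.13 (adjusted p = 9e-05 and 0.00011). Neither PPDPF (-0.27, adjusted p = 0.59) nor GPSM1 (-0.69, adjusted p = 0.13) passed with 50000 peaks per list.

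Of the 23 lists of genes by function, the neuronal list held the highest share of members that rose: 10 of 22 tested were higher and 2 lower, beside 10.9% and 15.5% of all genes, with a median change of 0.35 against -0.09 over all genes. NRXN3, a presynaptic adhesion protein, had 7.83, 6.91 and 8.26 kb at day 1, against 3.57, 2.30 and 2.93 kb in control (1.26 ± 0.11, adjusted p = 1e-06), and it rose with 50000 peaks per list too. CNTNAP2, a contactin-associated protein of axons, had 6.85, 7.08 and 8.73 kb at day 1, against 2.77, 1.98 and 2.57 kb in control (1.45 ± 0.16, adjusted p = 9.8e-06), but 0.61 with 50000 peaks per list (adjusted p = 0.12). The windows of the list were long, with a median of 393 kb against 49.1 kb over all genes, and the part of that length in the result was not tested. With 50000 peaks per list 3 of its members were higher and 0 lower, and the median was 0.05.

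Genes of other cell types rose in part: 5 of 16 blood cell genes were higher and 1 lower, 4 of 13 endothelial genes higher and 1 lower, and 2 of 6 liver genes higher and 0 lower. Over all genes 10.9% were higher and 15.5% lower. The median change was -0.04 in the blood, 0.37 in the endothelial and 0.10 in the liver list, and -0.09 over all genes. Median control levels were 2.95, 1.57 and 1.72 kb in these lists and 3.40 kb over all genes. TAL1, a haematopoietic transcription factor, had 1.76, 1.12 and 1.19 kb at day 1, against 0, 0 and 0.347 kb in control (1.62 ± 0.19). TIE1 and TEK, endothelial receptor kinases, rose by 0.97 ± 0.21 and 0.50 ± 0.11, and HNF4A, a liver transcription factor, by 0.58 ± 0.10 (adjusted p = 0.0035, 0.0038 and 0.00051). MS4A1, the B cell antigen CD20, had 0.505, 1.02 and 0.812 kb at day 1 and was listed at 0 in the control lists. KRT5, a basal keratin of the epithelial list, had 0.969, 0.352 and 1.15 kb at day 1 and was also listed at 0 in control. The summed scaled length over the tested members was 56.6 to 57.1 kb at day 1 and 54.8 to 62.5 kb in control for the blood list, 56.1 to 58.1 and 53.4 to 53.7 kb for the endothelial list, and 13.6 to 14.8 and 10.8 to 12.5 kb for the liver list. In the lists of 50000 peaks, 1 blood, 0 endothelial and 1 liver gene were higher, and TAL1 (0.85), TIE1 (0.42) and TEK (0.39) did not pass (adjusted p = 0.34, 0.59 and 0.23). Over 50 kb flanks the change of TIE1 was -0.0565. ALB and TTR had 0 bp in the 6 lists, and the part of other cells in these values was not tested.

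Of 23 p53 targets, 0 were higher and 3 lower (13.0%), beside 10.9% and 15.5% of all genes. CDKN1A, the p21 inhibitor of cell cycle kinases, had 3.92, 4.09 and 3.55 kb at day 1, against 5.11, 5.27 and 4.82 kb in control (-0.36 ± 0.09, adjusted p = 0.0089). BBC3, the death factor PUMA, fell by 0.31 ± 0.08 (adjusted p = 0.0074). In the unscaled fit 0 of the 23 were called, with an adjusted p of 0.19 for CDKN1A and 0.33 for BBC3, and CDKN1A had one of 0.0515 without day 1 replicate 3. In the lists of 50000 peaks CDKN1A had a change of -0.19 and BBC3 one of -0.08, and neither passed (adjusted p = 0.54 and 0.77).

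The Fanconi and homologous recombination genes repair crosslinks of the kind cisplatin leaves, and 2 of 24 were higher and 6 lower (8.33% and 25.0%, beside 10.9% and 15.5% of all genes). FANCI, part of the clamp loaded at crosslinks, had 3.59, 4.11 and 5.10 kb at day 1, against 2.67, 1.40 and 2.32 kb in control (0.88 ± 0.15, adjusted p = 0.00043), with 2 gained regions. Its change was -0.28 with 50000 peaks per list. PALB2, the partner of BRCA2, fell by 0.54 ± 0.10 (adjusted p = 0.0011) and passed in the unscaled fit too. FANCL, the ubiquitin ligase of the pathway, fell by 0.46 ± 0.11 (adjusted p = 0.0063, and 0.059 unscaled). Of the 18 nucleotide excision and mismatch repair genes, ERCC2, a helicase of TFIIH, rose by 0.36 ± 0.09 (adjusted p = 0.0093, and 0.058 without control replicate 2), and 1 was lower. Translesion synthesis, by which cells copy past platinum lesions, had 0 of 11 genes higher and 3 lower (27.3%). REV3L, the catalytic subunit of polymerase zeta, fell by 0.30 ± 0.09 (adjusted p = 0.017). Its change was -0.28 without day 1 replicate 1 and -0.29 without control replicate 3, with an adjusted p of 0.0531 and 0.0511, and -0.16 unscaled (0.51). Of these repair genes, PALB2 (-0.25), FANCL (-0.20), REV3L (-0.10) and ERCC2 (0.45) did not pass with 50000 peaks per list (adjusted p = 0.51, 0.76, 0.81 and 0.33).

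Among cell cycle genes, 1 of 23 of G1/S and replication was higher and 5 lower, and 1 of 23 of mitosis and cytokinesis was higher and 5 lower. Each pair of counts is 4.35% higher and 21.7% lower, beside 10.9% and 15.5% of all genes. PRC1, which bundles microtubules of the central spindle, had 1.70, 1.05 and 0.856 kb at day 1, against 3.00, 2.40 and 2.23 kb in control (-0.86 ± 0.16, adjusted p = 0.00086), and it fell in the unscaled fit and with 50000 peaks per list. BIRC5, survivin, which guards the spindle and blocks cell death, had 3.06, 2.91 and 3.60 kb at day 1, against 1.81, 1.71 and 2.18 kb in control (0.62 ± 0.14, adjusted p = 0.0037). That change was -0.24 with 50000 peaks per list and -0.18 over the gene body alone. CCND1, cyclin D1, fell by 0.47 ± 0.11 and CDK4, its kinase, by 0.44 ± 0.09 (adjusted p = 0.0066 and 0.0022, and 0.032 and 0.19 unscaled). Neither passed with 50000 peaks per list, where CCND1 had -0.46 and CDK4 -0.11 (adjusted p = 0.15 and 0.76).

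In the nuclear lamina and envelope list, 3 of 18 genes were higher and 5 lower (16.7% and 27.8%, beside 10.9% and 15.5% of all genes). NUP210, a pore membrane protein, had 7.22, 6.34 and 6.81 kb at day 1, against 4.19, 1.74 and 3.51 kb in control (1.07 ± 0.19, adjusted p = 0.00077). TMPO, which encodes the LAP2 proteins that tie chromatin to the lamina, had 1.52, 1.06 and 0.892 kb at day 1, against 2.54, 2.26 and 2.06 kb in control (-0.76 ± 0.12, adjusted p = 0.00034). Both kept their call in the unscaled fit and with 50000 peaks per list. LMNB1, lamin B1, fell by 0.44 ± 0.09 (adjusted p = 0.0016), with an adjusted p of 0.084 in the unscaled fit. Of 28 chromatin modifiers, 1 was higher and 7 lower (3.57% and 25.0%). Among the lower ones were EED and BMI1 of the Polycomb complexes (-0.53 ± 0.12 and -0.61 ± 0.14) and the deacetylase HDAC3 (-0.33 ± 0.08). Unscaled, 1 of the 28 was lower, and the adjusted p was 0.066 for EED, 0.0497 for BMI1 and 0.38 for HDAC3. With 50000 peaks per list LMNB1 (-0.03), EED (-0.31), BMI1 (-0.35) and HDAC3 (-0.11) did not pass (adjusted p = 0.97, 0.073, 0.74 and 0.72).

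Of 24 secretory factors, 3 were higher and 2 lower (12.5% and 8.33%, beside 10.9% and 15.5% of all genes). MMP10, a matrix protease, had 1.26, 1.22 and 1.25 kb at day 1, against 0.302, 0 and 0.224 kb in control (1.40 ± 0.13, adjusted p = 1.3e-06), but its change was 0.29 with 50000 peaks per list (adjusted p = 0.41). CCL2, a monocyte attractant, had 0.276, 0.498 and 0.261 kb at day 1 and was listed at 0 in control. Of 21 interferon-stimulated and nucleic acid sensing genes, 2 were higher and 2 lower (9.52% each), no larger shares than over all genes. RSAD2, whose gained promoter window is printed above, had 2.13, 1.80 and 1.63 kb at day 1, against 0.808, 0.745 and 0.753 kb in control (0.89 ± 0.16, adjusted p = 0.001). CXCL10, a T cell attractant, had 0.670, 0.535 and 0.671 kb at day 1 and was listed at 0 in control, and ISG15, a ubiquitin-like protein, fell by 0.50 ± 0.13 (adjusted p = 0.0093, and 0.074 unscaled). Of 14 NF-kappaB factors and inhibitors 0 were higher and 2 lower (14.3%). REL, an activating subunit, fell by 0.48 ± 0.13 (adjusted p = 0.01, but 0.0506 without day 1 replicate 3 and 0.076 unscaled). REL (-0.30) and ISG15 (-0.79) did not pass with 50000 peaks per list (adjusted p = 0.19 and 0.092).

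Of 19 AP-1 and immediate early factors, whose site stood in 24 of the gained promoter windows, 1 was higher and 4 lower. These are 5.26% and 21.1%, beside 10.9% and 15.5% of all genes. BATF, an AP-1 partner best known in lymphocytes, had 4.26, 3.54 and 4.32 kb at day 1, against 3.21, 3.11 and 2.99 kb in control (0.33 ± 0.09, adjusted p = 0.014). Its change was 1.44 with 50000 peaks per list, and its adjusted p 0.0525 without day 1 replicate 1 and 0.0698 without day 1 replicate 3. FOSL2, a FOS family member, fell by 0.47 ± 0.11 (adjusted p = 0.005, and 0.21 unscaled), with a change of -0.09 in the lists of 50000 peaks (adjusted p = 0.92).

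Of 21 mesenchymal and transition genes 0 were higher and 7 lower (33.3%), beside 10.9% and 15.5% of all genes. VIM, the intermediate filament of mesenchymal cells, had 5.03, 5.03 and 5.24 kb at day 1, against 6.93, 6.40 and 6.04 kb in control (-0.31 ± 0.07, adjusted p = 0.0057). FN1, fibronectin, fell by 0.36 ± 0.08 (adjusted p = 0.0035). Unscaled, 1 of the 21 was lower, and the adjusted p was 0.4 for VIM and 0.093 for FN1. Of 18 epithelial genes 2 were higher and 2 lower, and OVOL1, a repressor of mesenchymal genes, fell by 0.75 ± 0.13 (adjusted p = 0.0008). In the lists of 50000 peaks OVOL1 (-0.22), VIM (-0.08) and FN1 (-0.04) did not pass (adjusted p = 0.48, 0.76 and 0.996).

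Of 18 genes of NRF2 and glutathione, which binds cisplatin, 0 were higher and 6 lower. Of 16 platinum, copper and drug transporters 2 were higher and 3 lower (12.5% and 18.75%, beside 10.9% and 15.5% of all genes). ABCC5, an efflux pump of nucleotide analogues, had 5.61, 5.48 and 5.34 kb at day 1, against 4.25, 3.41 and 4.34 kb in control (0.42 ± 0.09, adjusted p = 0.0044). It kept its call without scaling and with 50000 peaks per list. Its window, 10 kb flanks included, held 6 gained regions with all peaks and 1 with 50000 peaks per list. ABCC2, an efflux pump of glutathione conjugates, fell by 0.41 ± 0.10. Of 21 hypoxia genes 0 were higher and 7 lower, among them ADM (-0.38 ± 0.09) and STC2 (-0.45 ± 0.11). Of 21 apoptosis and survival genes 0 were higher and 6 lower, among them CASP8 (-0.40 ± 0.09) and BAK1 (-0.37 ± 0.09). Housekeeping genes, listed as a control, had 0 of 17 higher and 6 lower with a median of -0.21, and ATP5F1B and TUBA1B fell by 0.40 ± 0.08 and 0.41 ± 0.10. Unscaled, 0 of the NRF2, hypoxia, apoptosis and housekeeping genes were called, and ABCC2 had an adjusted p of 0.27. ABCC2, ADM, STC2, CASP8, BAK1, ATP5F1B and TUBA1B did not pass with 50000 peaks per list, where their changes were -0.48, -0.29, -0.27, -0.40, -0.10, -0.29 and -0.20. The shares of lower members in the hypoxia, NRF2, apoptosis and mesenchymal lists were 28.6% to 33.3%, beside 35.3% in the housekeeping list and 15.5% over all genes.

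**Figure D5:**
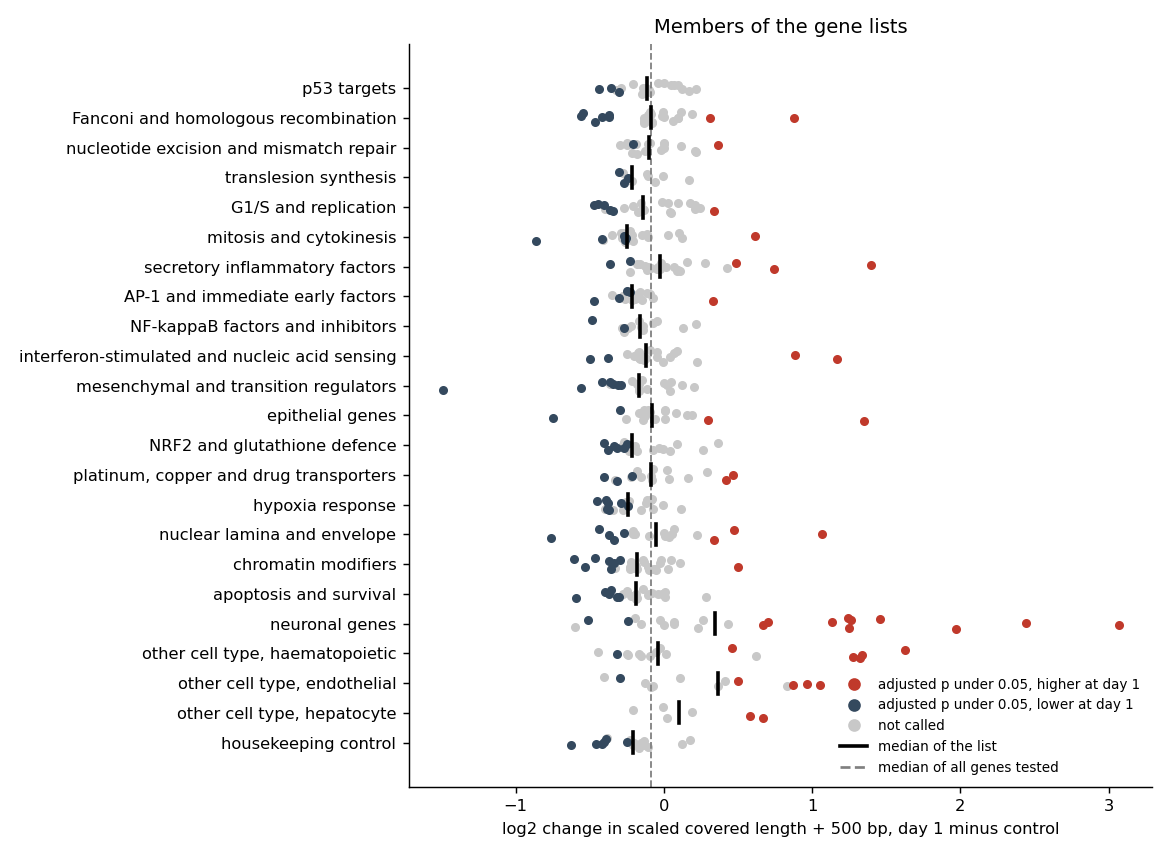
Log2 change in scaled covered length plus 500 bp, day 1 minus control, of each tested member of the 23 gene lists; filled colours mark members with an adjusted p under 0.05, black bars the list medians and the dashed line the median of all genes tested. The medians of the neuronal (0.35) and endothelial (0.37) lists lie farthest above the line.

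The same fit gives the change of these genes in PC3 survivors at day 1, where 1013 of all genes (6.02%) were higher and 1218 (7.24%) lower than in untreated PC3 cells. The change in MDA-MB-231 differed from that in PC3 by an interaction term in 891 of all genes (5.3%) and in 23 of the 63 genes above that are given with a fitted change and its error. MMP10 had a log2 change of 1.40 in MDA-MB-231 and -0.17 in PC3, and PTGDS one of -1.66 and -0.05. DPP6, with 2.44 in MDA-MB-231 and 1.66 in PC3 (adjusted p = 0.0022 in PC3), and CACNA1B, with 3.07 and 1.60 (0.0053), rose in both lines. The genes had been chosen for their change in MDA-MB-231, not in PC3, so the choice enters the 23 of 63.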

How the data were processed

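Bulk ATAC-seq had been run on MDA-MB-231 survivors at day 1 and day 10 and on untreated cells, and likewise on PC3. Each deposited file is a narrowPeak list of 1 biological replicate. The submitters' processing notes name Genrich 0.6.2, Bowtie2 2.3.5.1, SAMtools 1.6, Picard, FastQC 0.12.1, R 4.4.1 and, as build, GRCh38 or hg38. How the 3 experimental samples of a replicate were joined, the read filters and any shift for the transposase are not given in the sources used here. The authors deposited a peak score (column 7) and a -log10 p (column 8) for each peak. The score served only for ranks inside a list and the -log10 p only as a stricter threshold. The lists hold no counts, so the depth is unknown and its part in the number of peaks was not tested.

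Peaks outside chromosomes 1 to 22 and X, 0.0859% to 0.217% of a list, were left out. Start and end were taken from the files, gene bodies and promoter sequences from RefSeq GRCh38.p14. Covered length per gene body with 10 kb flanks was scaled to equal totals, a gene was kept if 3 or more lists covered 500 bp of it, and limma 3.58.1 was run on log2(length + 500 bp) (R 4.3.3, intensity trend, Benjamini-Hochberg adjustment) over 18 lists in 6 groups. A change on this scale understates that of genes with little covered length. Values of 1 per list were compared with the two-sided exact permutation test, where 3 against 3 cannot go below p = 0.1. The p-values measure the spread between biological replicates, which the labels name without saying whether they were separate cultures.

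Same-numbered day 1 and control lists deviated together over genes (correlations 0.389, 0.235 and 0.193, against -0.256 to 0.0489 for other pairs), a pairing seen in the data and not given in the labels. The calls and exact tests reported here are unpaired, and the fit with the replicate number as a block is an alternative. Named genes are a selection from the 10 largest rises and falls passing both with all peaks and with 50000 per list with groups apart, up to 3 members of each gene list by smallest p, genes at the widest changed regions and changed promoter windows. Others, such as PGR and ESR1, came from the cell type markers or were chosen after their values were seen. The comparison and the gene lists were chosen with earlier results of these data known. The interferon factor motif and the alternatives for promoter windows were added after seeing the data. Results for a few genes are not reported here. The steps were tested on simulated data with Python 3.11.15 and R.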

Additional observations from a re-analysis of the deposited data

Results flagged for a closer look

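For 23 of the 63 genes above that are given with a fitted change and its error, the change at day 1 differed between MDA-MB-231 and PC3 by an interaction term in the same limma fit, adjusted over all genes. Over all 16816 genes 891 (5.3%) passed that test. All 63 had been called in MDA-MB-231, and that change is part of the interaction term. The choice of genes therefore enters the 23 of 63, and its excess over the share of all genes is no independent result. Cell line and culture cannot be told apart. OPN1SW, CCL2 and CXCL10, which were listed at 0 in the MDA-MB-231 control lists and are given no fold, passed too (limma adjusted p = 0.0062, 0.016 and 0.014). Each value that follows is the log2 change in MDA-MB-231 minus that in PC3.

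Among genes that rose in MDA-MB-231, the difference was 2.39 for AGBL4 (2.40 in MDA-MB-231 and 0.00897 in PC3, adjusted p = 0.0054), 1.65 for DRGX (0.0032), 1.57 for NSG1 (0.0034), 1.41 for KCND3 (0.0039) and 1.38 for SERPINA9 (0.0013). KCND3, NSG1 and SERPINA9 passed in PC3 itself as well, with changes of 0.88, 0.81 and 0.76. MMP10 differed by 1.56 (1.40 in MDA-MB-231 and -0.17 in PC3, adjusted p = 0.0001) and CNTNAP2 by 1.54 (1.45 and -0.09, adjusted p = 0.00081). TAL1 differed by 1.34 (adjusted p = 0.008), NUP210 by 1.12 (0.021), RSAD2 by 1.03 (0.015) and NRXN3 by 0.884 (0.0034). FREY1 and MAPK8IP1, which share a gained region, differed by 1.02 and 1.01 (0.043 and 0.017), FANCI by 1.01 (0.008) and ERCC2 by 0.552 (0.02).

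Among genes that fell, TBC1D10C differed by -1.74 (-1.24 in MDA-MB-231 and 0.49 in PC3, adjusted p = 0.0052) and PTGDS by -1.61 (-1.66 and -0.05, adjusted p = 0.0049). PABPC4 differed by -1.37 (0.015), NUDT14 by -1.32 (0.0078), NAT8L by -1.31 (0.0059) and TSC22D2 by -0.866 (0.0049). The neighbours DNLZ and GPSM1 differed by -1.25 (0.0009) and -1.11 (0.003).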

How the results depend on the processing

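Counts of called genes moved by over 1.5 times with shorter lists or other scaling. Higher and lower genes numbered 649 and 526 with 50000 peaks per list and 940 and 872 with a -log10 p of at least 4. Lower genes numbered 318 without scaling and 953 with median-of-ratios scaling, against 2609. With pseudocounts of 100 and 2000 bp, no filter, other gene windows and a fit of the 6 lists alone the totals stayed within 1.5 times. The genes called differed more between gene windows. Over the gene body alone 1080 of the 1825 higher and 1381 of the 2609 lower genes kept their call, and 15 were called in the opposite direction. With 50 kb flanks these numbers were 1160, 1386 and 18. Gained regions numbered 2880 and 5460 in those shorter lists, lost ones 2323 with 50000 peaks, gained promoter windows 66 and 67 and lost ones 177 and 68. The difference in peak number was 0 by construction with 50000 peaks and 15007 with the stricter threshold, that in covered length -3.23 Mb with 50000 peaks, that in the gene end share 0.052 points, and that in the share between genes 0.804 and 2.48 points, against 2.86. Apart from the peak number, the cause was not tested.

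Without 1 list in turn, 1246 to 1651 genes were higher and 1162 to 2115 lower, 12356 to 21034 regions gained and 1095 to 1895 lost, and 125 to 188 promoter windows gained and 44 to 127 lost. The differences were 20845 to 37326 peaks, 2.30 to 10.6 Mb, -2.69 to -1.87 points at gene ends and 2.70 to 3.09 points between genes. With the replicate number as a block 2105 genes were higher and 3211 lower, and no call of the 63 described genes changed. Over 1070 fits of these genes, 932 gave the same direction and side of the threshold, 129 no longer passed and 9 reversed. The reversals were FANCI at -0.28 and BIRC5 at -0.24 with 50000 peaks; BIRC5 at -0.18 and MAPK8IP1 at -0.0852 over the gene body; BIRC5 at -0.0332 and TIE1 at -0.0565 with 50 kb flanks; and NAT8L at 0.23, FREY1 at -0.0576 and MAPK8IP1 at -0.00624 with the stricter threshold. The cause was not tested. Depth is unknown and limits every statement on a site without a peak.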

Other observations

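The genes described at day 1 also have values in the MDA-MB-231 survivors at day 10. Both comparisons use the same 3 control lists, so likeness between them is no independent support, and the change between the days was not tested. By the same limma fit 1849 genes (11.0%) passed upward and 2814 (16.7%) downward at day 10. CACNA1B had a log2 change against control of 3.07 at day 1 and 3.48 at day 10. DRGX had 2.23 at day 1 and 3.05 at day 10, AGBL4 2.40 at day 1 and 2.88 at day 10, NSG1 2.39 at day 1 and 2.27 at day 10, and MMP10 1.40 at day 1 and 1.72 at day 10. NAT8L had -1.29 at day 1 and -1.65 at day 10, and CCND1 had -0.47 at day 1 and -0.66 at day 10. These 7 passed the test at both times.

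Other genes called at day 1 did not pass at day 10. SMAD4 had -0.61 (limma adjusted p = 0.094) at day 10, NR2F2 -0.17 (0.62), TMPO -0.19 (0.26), CDKN1A -0.16 (0.19) and FN1 -0.02 (0.89). FANCI had 0.88 at day 1 and -0.22 (0.26) at day 10, and ABCC5 0.42 at day 1 and 0.14 (0.28) at day 10. For COQ8A the value was 0.77 at day 1 and -0.01 at day 10. Among the genes that passed in both lines at day 1 was BMI1, of a Polycomb complex, which had -0.61 in MDA-MB-231 and -0.76 in PC3 (adjusted p = 0.0025). LMNB1 had -0.44 in MDA-MB-231 and -0.32 in PC3 (0.025).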
